A study of Mus musculus with 3 samples.

Results

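TRBV5 clonotypes, the T cell receptor beta chains built from the V gene that antibody nomenclature calls Vβ1, were followed through CD4, CD8 and double-negative (DN) T cells. A clonotype here is one nucleotide CDR3 sequence with its V and J gene. The members were chosen by their V gene assignment, TRBV5, together with a TRBJ gene. They numbered 11938 of 167967 TRB clonotypes, with 4795 of 44807 in CD4, 4251 of 81212 in CD8 and 2892 of 41948 in DN T cells. Because some were listed in more than 1 subset, these were 10912 distinct clonotypes, and no TRBV5 row lacked a TRBJ gene. The cells were splenic and came from 1 mouse of the strain MRL.lpr, at 16 weeks of age. This strain carries the lpr mutation of the death receptor gene Fas and accumulates T cells that bear a T cell receptor but neither CD4 nor CD8. Each subset was sorted by flow cytometry, and 1 library was made from the mRNA of each. With 1 library per subset and 1 mouse there was no replicate check, and no p-value is given. The intervals are 95% intervals over clonotypes or reads, and they cover counting error only, since the amplified reads carry no molecular identifiers and several can stem from the same molecule. Intervals of values weighted by reads take each read as separate, also reads of the same clonotype. They are therefore too narrow where a few clonotypes hold many of the reads. CD4 and CD8 transcripts were not analysed here, so the sort labels could not be checked against their markers.

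A beta chain is assembled by joining a V, a D and a J gene. Bases are trimmed from the gene ends and others are added at the joins, and the joined stretch encodes CDR3, the loop that contacts peptide in the MHC groove. The V gene gives the first residues of CDR3 and the J gene the last. TRBD1 lies before both clusters of J genes and TRBD2 lies between the TRBJ1 and the TRBJ2 cluster, so deletional joining pairs TRBD2 with TRBJ2 genes. A chain whose V and J parts are in different reading frames, or that holds a stop codon, cannot be made into protein and is called nonproductive. In the mouse gene list of GRCm38.p6, Trbv5 is a V segment with the synonym Tcrb-V1. It is listed between Trbv4, a V segment, and Trbv6, a V segment pseudogene.

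The start of the TRBV5 CDR3 is shown first, since every later comparison of junctions is read against it. It was taken as the longest run of bases carried by most in-frame TRBV5 clonotypes at each step. The run was 17 bases long, and at the next base the most common letter was carried by 45.2% of the clonotypes that matched up to there.
TRBV5 CDR3 start: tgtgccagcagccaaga
It encodes cysteine, alanine, 2 serines and glutamine, and then the first bases of an aspartate or glutamate codon. The 5 largest in-frame TRBV5 clonotypes of each library are shown next because the sharing results turn on them. Lower case marks the bases that match the TRBV5 start or the shared end of the J gene, and capitals mark the bases in between, which hold the D gene and added bases.
CD4 clonotype 1, TRBJ2-1: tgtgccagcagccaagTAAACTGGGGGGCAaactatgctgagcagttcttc
CD4 clonotype 2, TRBJ1-1: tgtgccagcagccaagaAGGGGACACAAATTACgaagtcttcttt
CD4 clonotype 3, TRBJ2-5: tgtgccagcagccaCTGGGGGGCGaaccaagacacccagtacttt
CD4 clonotype 4, TRBJ2-5: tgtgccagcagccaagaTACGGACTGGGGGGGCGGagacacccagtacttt
CD4 clonotype 5, TRBJ2-4: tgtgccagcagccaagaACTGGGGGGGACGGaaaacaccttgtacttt
CD8 clonotype 1, TRBJ2-5: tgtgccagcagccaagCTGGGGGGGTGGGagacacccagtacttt
CD8 clonotype 2, TRBJ1-4: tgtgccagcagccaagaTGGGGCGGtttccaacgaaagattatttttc
CD8 clonotype 3, TRBJ2-4: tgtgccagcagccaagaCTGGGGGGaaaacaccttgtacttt
CD8 clonotype 4 and DN clonotype 2, TRBJ1-3: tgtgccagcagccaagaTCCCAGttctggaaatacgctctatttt
CD8 clonotype 5, TRBJ2-5: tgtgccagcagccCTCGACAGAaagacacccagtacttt
DN clonotype 1, TRBJ2-1: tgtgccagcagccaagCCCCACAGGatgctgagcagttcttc
DN clonotype 3, TRBJ2-3: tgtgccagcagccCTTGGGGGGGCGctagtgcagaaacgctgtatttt
DN clonotype 4, TRBJ2-7: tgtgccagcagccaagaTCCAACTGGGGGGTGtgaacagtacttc
DN clonotype 5, TRBJ2-4: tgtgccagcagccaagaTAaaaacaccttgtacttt

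TRBV5 took 10.1% of the TRB reads of CD4 T cells (interval 9.93 to 10.3%), 5.05% in CD8 (4.94 to 5.16%) and 6.88% in DN T cells (6.77 to 6.997%). The underlying read counts were 13490 of 133667, 7616 of 150874 and 13374 of 194290. CD4 was highest and CD8 lowest, and the 3 intervals did not overlap. The rule fixed which V gene was counted, and these shares are given as a description. Over the 3 libraries and the 13 V genes with at least 1% of reads in each, the genes whose ratios of DN to CD8 and of CD4 to CD8 lay closest to those of TRBV5 were TRBV13-2, TRBV4 and TRBV26. Their distances on the log2 scale were 0.47, 0.47 and 0.69.

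TRBV5 reads were concentrated in fewer clonotypes in DN T cells than in the other 2 subsets, and so were the reads of the other V genes. The 10 largest TRBV5 clonotypes held 18.1% of the TRBV5 reads in DN T cells (17.5 to 18.8%), against 10.3% in CD4 (9.78 to 10.8%) and 7.06% in CD8 (6.51 to 7.66%). Reaching 50% of the TRBV5 reads took 89 clonotypes in DN T cells, 393 in CD4 and 874 in CD8. At least 100 reads were reached by 17 TRBV5 clonotypes in DN T cells, by 5 in CD4 and by 0 in CD8. With each library thinned to 7616 TRBV5 reads, the 10 largest held 17.9%, 10.4% and 7.06% in DN, CD4 and CD8, 50% took 88, 372 and 874 clonotypes, and 5, 2 and 0 reached 100 reads. The clonotypes that made up 50% of reads were 3.08% of all TRBV5 clonotypes in DN, 8.20% in CD4 and 20.6% in CD8, and for the other V genes 3.05%, 6.94% and 19.01%. At the other end, clonotypes with 1 read made up 57.7% of the TRBV5 clonotypes in DN, 62.1% in CD4 and 69.3% in CD8, close to the 56.4%, 62.0% and 68.9% of the other TRBV genes.

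Nonproductive TRBV5 rearrangements were more common among the DN clonotypes than in CD4 or CD8. The other V genes, pooled, showed the same order with a smaller gap between DN and CD4, which single V genes did not all share. The in-frame share of TRBV5 was 91.8% of 2892 in DN T cells (90.8 to 92.8%), 94.9% of 4795 in CD4 (94.3 to 95.5%) and 95.7% of 4251 in CD8 (95.02 to 96.2%). In percentage points, DN T cells lay below CD8 (difference -3.83, interval -5.03 to -2.68) and also below CD4 (difference -3.07, interval -4.28 to -1.92). Weighted by reads, both gaps were smaller, -0.65 points to CD8 (-1.17 to -0.11) and -1.24 points to CD4 (-1.68 to -0.81). The pooled other TRBV genes were in frame in 90.98% in DN, 91.8% in CD4 and 95.08% in CD8. Each V gene with at least 1% of reads was in frame less often in DN than in CD8. Against CD4, TRBV13-1, TRBV1, TRBV17, TRBV29, TRBV13-3 and TRBV14 were in frame more often in DN, and the rest less often. These single-gene values have no interval. Beside the other TRBV genes, TRBV5 was in frame more often in CD4 T cells, by 3.06 points (2.35 to 3.71) over their 91.8%, and this gap was 1.91 points when only the V genes with at least 1% of reads were used. The gap was 0.59 points in CD8 and 0.86 in DN T cells, and both intervals held 0. Among the 13 V genes with at least 1% of reads, TRBV5 ranked 5 in CD4 and 9 in both CD8 and DN T cells. In CD4 the genes closest to it by read ratios, TRBV13-2, TRBV4 and TRBV26, stood at 94.5%, 90.7% and 96.5%.
Nonproductive clonotypes were small: a nonproductive TRBV5 clonotype had on average 1.57 reads in CD4, 1.42 in CD8 and 2.31 in the DN subset, and an in-frame one 2.88, 1.81 and 4.83. A single nonproductive rearrangement was the largest of its kind in all 3 libraries, a TRBJ2-2 clonotype of 47 bases, shown because the same sequence led in each.
Nonproductive TRBJ2-2: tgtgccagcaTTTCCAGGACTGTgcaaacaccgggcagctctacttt
It had 66 reads in CD4 (0.0494% of TRB reads), 52 in CD8 (0.0345%) and 88 in DN T cells (0.0453%). Unlike the large in-frame DN clonotypes described further on, its shares in CD4 and DN T cells had overlapping intervals (0.0388 to 0.0628% and 0.0368 to 0.0558%).

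TRBV5 was joined to all 12 TRBJ genes, most often by clonotypes to TRBJ2-7, and like the other V genes it used the TRBJ2 cluster more in DN than in CD4 T cells. TRBJ2-7 was carried by 18.04% of in-frame TRBV5 clonotypes in CD4 (16.9 to 19.2%), 22.4% in CD8 (21.1 to 23.7%) and 25.9% in DN T cells (24.2 to 27.6%). DN exceeded CD4 by 7.83 points (5.83 to 9.84) and CD8 by 3.52 points (1.43 to 5.63), the latter by 1.98 points among clonotypes of at least 2 reads, an interval that held 0. In the other V genes DN exceeded CD4 by 6.16 points and CD8 by 2.35 points, and the TRBV5 shifts differed from these by 1.66 points (-0.42 to 3.75) and 1.16 points (-1.004 to 3.33). By reads, TRBJ2-5 (16.3%) stood above TRBJ2-7 (14.4%) in CD4 T cells. TRBJ2-5 moved the other way, from 14.5% in CD4 to 11.6% in CD8 and 10.5% in DN T cells, where DN lay 4.01 points below CD4 (difference -4.01, interval -5.54 to -2.44). TRBJ2-1 was carried by 12.4%, 13.4% and 15.4%, with DN above CD4 by 2.98 points (1.33 to 4.68).
The whole TRBJ2 cluster was used by 65.5% of in-frame TRBV5 clonotypes in CD4, 69.3% in CD8 and 71.8% in the DN subset. DN exceeded CD4 by 6.29 points (4.08 to 8.47) and CD8 by 2.57 points (0.34 to 4.78). The other V genes used it in 63.2%, 69.3% and 70.6%, and the DN to CD4 shift of TRBV5 differed from theirs by -1.13 points (-3.43 to 1.17). The interval of the DN to CD8 difference held 0 among clonotypes of at least 2 reads, where the difference was 2.48 points.

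Set against the other TRBV genes of the same library, TRBV5 was joined more often to TRBJ1-1 and less often to TRBJ1-2 in every subset. TRBJ1-1 exceeded its share among the other V genes by 1.90 points in CD4 (0.94 to 2.91), 2.24 in CD8 (1.30 to 3.25) and 2.17 in DN T cells (1.00 to 3.44). TRBJ1-2, the J gene with the lowest share of TRBV5 clonotypes in CD8 and DN T cells, stood at 3.85% in CD4, 2.53% in CD8 and 2.33% in the DN subset. It lay 2.62, 2.40 and 1.48 points below the other V genes (intervals -3.20 to -1.97, -2.86 to -1.85 and -2.03 to -0.80). TRBJ1-3 was also below the other V genes in each library. Over the 12 J genes, 3 lay above and 3 below in CD4, 4 above and 3 below in CD8, and 2 above and 4 below in DN T cells. The TRBJ2 share itself exceeded that of the other V genes in CD4, by 2.36 points, but lay 2.36 points below it when clonotypes were weighted by reads (difference -2.36).

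**Figure D1:**
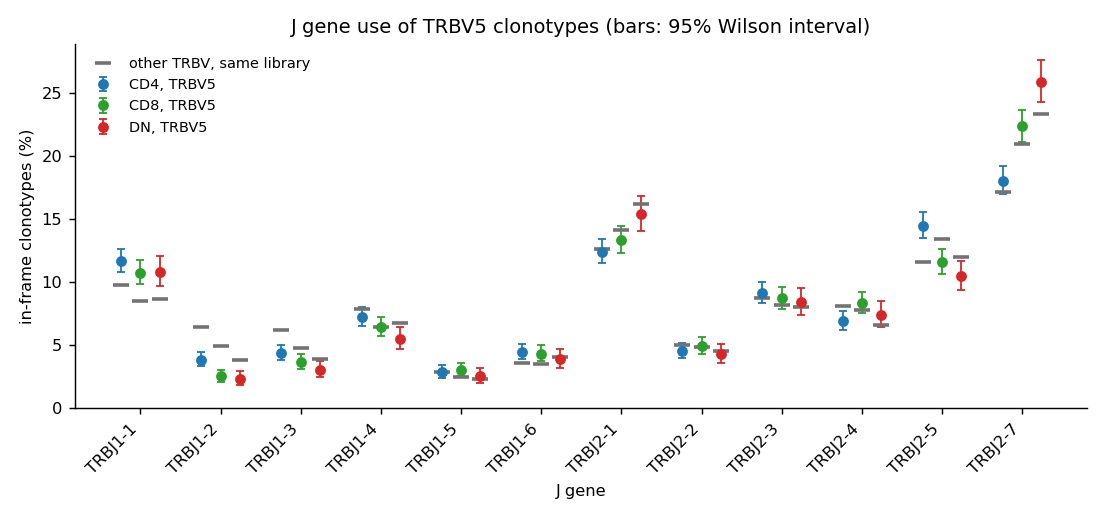
Share of in-frame TRBV5 clonotypes (y, percent) carrying each J gene (x) in CD4, CD8 and DN T cells; points are TRBV5 with 95% Wilson intervals and grey dashes are the other TRBV genes of the same library. TRBJ2-7 stands highest and climbs from 18.04% in CD4 to 25.9% in DN T cells, and TRBJ1-1 lies above and TRBJ1-2 below the grey dashes in all 3.

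The D gene followed the same order. TRBD2 was assigned to 31.9% of in-frame TRBV5 clonotypes in CD4, 37.1% in CD8 and 43.0% in the DN subset, and TRBD1 to 44.9%, 38.4% and 33.9%. In 23.2%, 24.4% and 23.1% no D gene was assigned, and these had shorter CDR3s (13.7, 13.6 and 13.9 residues on average, against 14.8, 14.7 and 14.9 with a D gene). Within TRBJ2 clonotypes, where both D genes can be joined, TRBD2 was assigned to 45.2% in CD4, 51.1% in CD8 and 56.8% in the DN subset. DN exceeded CD4 by 11.6 points (8.73 to 14.4) and CD8 by 5.70 points (2.80 to 8.57), the latter by 2.95 points among clonotypes of at least 2 reads, an interval that held 0. The other TRBV genes stood at 41.9%, 43.6% and 53.3%, below TRBV5 in each library, with the largest gap in CD8 (7.54 points, 5.65 to 9.44). Their shift from CD8 to DN was larger than that of TRBV5, which differed from it by -4.01 points (-6.99 to -1.03). TRBD2 was also listed with a TRBJ1 gene, an order that deletional joining does not give, in 104 of 1568 TRBJ1 clonotypes in CD4, 70 of 1250 in CD8 and 57 of 748 in DN T cells. Those shares, 6.63%, 5.60% and 7.62%, bear on how far the D gene of such short sequences can be assigned, and the part of misassignment was not tested.

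TRBV5 CDR3s were long. Counted from the first cysteine to the last phenylalanine, they averaged 14.52 residues in CD4 (SD 1.33), 14.46 in CD8 (SD 1.43) and 14.63 in DN T cells (SD 1.42), where the other TRBV genes averaged 13.84, 13.89 and 14.18. The difference was 0.68 residues in CD4, 0.58 in CD8 and 0.44 in the DN subset. Among 13 V genes, TRBV5 ranked 1 for length in CD4 and 2 in both CD8 and DN T cells, behind TRBV1 (14.49 and 14.75 residues). TRBV5 was longer with each of the 12 J genes in every library, and the interval lay above 0 for 12 of them in CD4, 12 in CD8 and 11 in the DN subset. Short loops of at most 11 residues were scarce, at 1.38%, 2.63% and 1.66% of TRBV5 clonotypes against 5.56%, 6.22% and 4.61% of the others. Loops of at least 17 residues made up 6.20%, 6.20% and 6.70% against 2.42%, 2.99% and 4.64%. Between subsets the differences were smaller: DN exceeded CD8 by 0.16 residues (0.095 to 0.234) and CD4 by 0.10 residues (0.036 to 0.169), the latter by 0.036 residues weighted by reads. The other TRBV genes also had their longest loops in DN T cells, at the 14.18 residues given above.

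**Figure D2:**
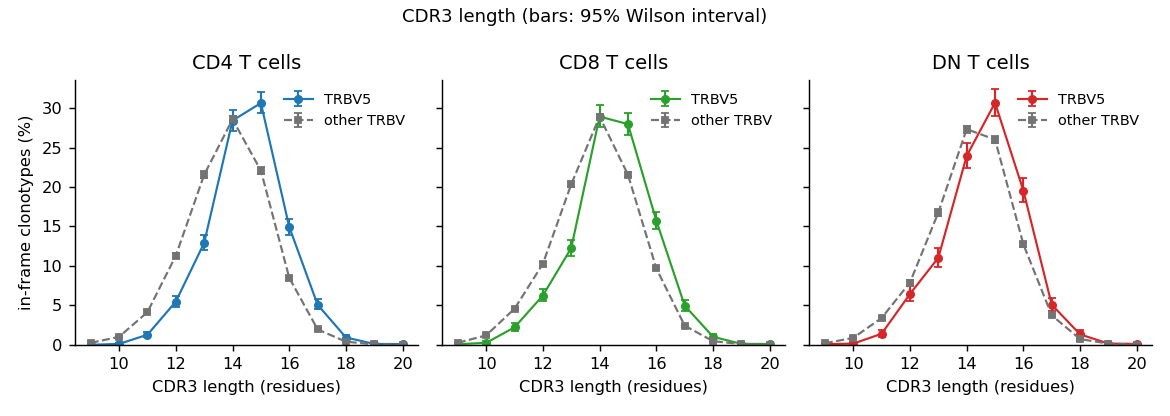
Share of in-frame clonotypes (y, percent) at each CDR3 length in residues (x) for TRBV5 (colour, solid) and the other TRBV genes (grey, dashed) in each library, with 95% Wilson intervals. The TRBV5 curve lies to the right of the grey one in all 3 libraries, with means of 14.52, 14.46 and 14.63 residues against 13.84, 13.89 and 14.18.

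Splitting each CDR3 into its V-matching start, its J-matching end and the bases between showed where the length lay. The V-matching start averaged 14.9 bases in CD4, 14.9 in CD8 and 14.8 in the DN subset. The other V genes, here only those with at least 1% of reads, averaged 13.0, 13.4 and 13.5. Each gene was matched to its own start, and these starts were 13 to 19 bases long. TRBV5 exceeded the other V genes by 1.85 bases (1.78 to 1.92), 1.42 bases (1.35 to 1.49) and 1.30 bases (1.201 to 1.39). In the middle the excess was 0.30 bases in CD4 and 0.30 in CD8, and the DN excess of 0.17 bases had an interval that held 0. The J-matching end did not differ beyond its interval from the other V genes in any library.
Between subsets it was the middle and the J-matching end that differed. The V-matching start differed between DN and CD8 by -0.03 bases and between DN and CD4 by -0.06 bases, and both intervals held 0. The middle, at 10.5 bases in CD4, 10.3 in CD8 and 11.01 in the DN subset, was longer in DN than in CD8 by 0.74 bases (0.53 to 0.96) and than in CD4 by 0.56 bases (0.35 to 0.78). The other V genes with at least 1% of reads also had their longest middle in DN T cells. They averaged 10.2 bases in CD4, 9.97 in CD8 and 10.8 in the DN subset. The J-matching end of TRBV5 was shorter in DN T cells, with a difference of -0.22 bases to CD8 (-0.40 to -0.047) and -0.20 bases to CD4 (-0.37 to -0.027). The match to the start was kept up to base 13 in 92.8%, 92.6% and 91.4% of in-frame clonotypes in CD4, CD8 and DN T cells. It dropped at the next base, to 69.2%, 67.4% and 67.2% at base 14, and reached 34.2%, 33.9% and 35.2% at base 17. A match can also arise from an added base, so these are upper values for untrimmed V ends.

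**Figure D3:**
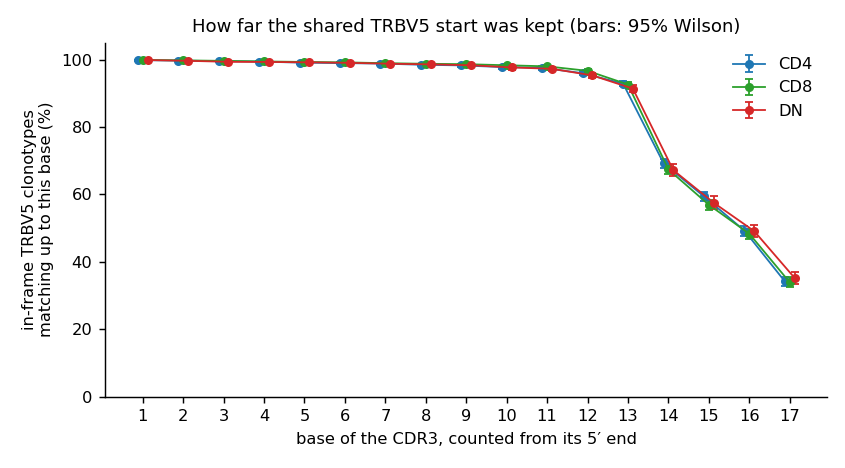
Share of in-frame TRBV5 clonotypes (y, percent) that match the common TRBV5 start up to each base of the CDR3 (x, counted from its 5′ end), with 95% Wilson intervals. The 3 libraries run together, stay at or above 91.4% to base 13 and fall to between 33.9 and 35.2% at base 17.

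TRBV5 loops were more acidic than those of the other V genes, counting residue 6, whose codon begins in the TRBV5 start. Glutamine, the last whole residue of the TRBV5 start, was kept at position 5 in 66.5% of in-frame clonotypes in CD4, 63.6% in CD8 and 63.5% in the DN subset, and proline, which follows from trimming within that codon, stood there in 16.8%, 18.1% and 18.1%. At position 6 aspartate was found in 27.1%, 28.3% and 30.2% and glutamate in 13.8%, 11.8% and 11.9%. Over the interior of the loop, from residue 6 to before the last 6 residues, aspartate made up 11.6%, 12.3% and 13.2% of residues in CD4, CD8 and DN T cells, above the 6.95%, 8.41% and 10.03% of the other TRBV genes by 4.69, 3.91 and 3.19 points. Glutamate made up 4.83%, 4.33% and 4.04% against 1.78%, 2.16% and 2.13%. Acidic minus basic residues per interior averaged 0.30, 0.30 and 0.33 in TRBV5 and -0.02, 0.05 and 0.09 in the other V genes. Residue 6 counts in this interior. Over all TRBV5 loop lengths it was aspartate in 1234, 1149 and 802 clonotypes and glutamate in 629, 481 and 315. The whole TRBV5 interior held 1868, 1739 and 1275 aspartates and 775, 611 and 390 glutamates. The interior without residue 6 was not compared. A cysteine after the first residue was rare in TRBV5, in 8 clonotypes in CD4, 9 in CD8 and 7 in the DN subset, or 0.18%, 0.22% and 0.26%. It was present in 7.76%, 12.3% and 13.1% of the others, among which TRBV1 encodes such a cysteine itself. One of the 7 in DN T cells was DN clonotype 4, printed above.

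Tryptophan, a large aromatic residue, was most frequent in DN loops. At least 1 interior tryptophan was found in 31.1% of in-frame TRBV5 clonotypes in DN T cells (29.3 to 32.8%), in 19.5% in CD8 (18.3 to 20.8%) and in 13.1% in CD4 (12.1 to 14.1%). DN exceeded CD8 by 11.5 points (9.41 to 13.7) and CD4 by 18.01 points (16.01 to 20.03). Weighted by reads these gaps were 7.18 and 13.7 points. This measure was chosen after its values were seen. The other TRBV genes showed the same order, at 25.7% in DN, 13.3% in CD8 and 10.5% in CD4. The DN to CD8 gap of TRBV5 differed from theirs by -0.92 points (-3.12 to 1.28) and the DN to CD4 gap by 2.77 points (0.68 to 4.86). TRBV5 exceeded them in DN T cells by 5.34 points (3.55 to 7.19), by 3.09 points among clonotypes of at least 2 reads and by 0.67 points when clonotypes were weighted by reads, an interval that held 0. TRBV5 loops were also longer there, by 0.44 residues, and the part of length was not tested. Per interior residue, tryptophan exceeded that of the other V genes by 0.52 points in DN T cells (-0.05 to 1.13). In CD4 this excess was 0.05 points (-0.26 to 0.37) and in CD8 1.08 points (0.70 to 1.48). The DN share did not rest on a few large clonotypes: in DN T cells it was 31.8% among clonotypes of 1 read, 29.7% among those of 2 to 9 reads and 32.0% (25.9 to 38.8%) among those of at least 10 reads. In CD8 these shares were 19.2%, 19.5% and 36.7%, the last from 49 clonotypes (24.7 to 50.7%). Among clonotypes of at least 10 reads the DN and CD8 intervals thus overlapped. In CD4 the shares were 13.8%, 12.2% and 10.1%. The DN share was 30.9% in clonotypes absent from CD8 and 31.7% (27.7 to 36.0%) in the 483 also found there. Beside these same 483 clonotypes, the remaining CD8 clonotypes carried a tryptophan in 17.9% (16.7 to 19.2%). CD4 clonotypes found in DN T cells carried one in 27.4% (22.8 to 32.6%) and the remaining CD4 clonotypes in 12.0% (11.1 to 13.0%). Sharing with CD8 went the same way in CD4: 22.0% (17.9 to 26.6%) of CD4 clonotypes found in CD8, and 12.3% (11.4 to 13.3%) of the rest. For CD8 and for DN clonotypes found in CD4 or not, the intervals overlapped (22.0% and 19.3%, 27.4% and 31.5%). The part of clonotype size in these contrasts by sharing was not tested.
Most tryptophan-bearing TRBV5 clonotypes were assigned TRBD2, in 83.0% for CD4, 80.7% for CD8 and 81.0% for DN. Among TRBD2 clonotypes alone, 33.9% in CD4, 42.5% in CD8 and 58.5% in the DN subset had a tryptophan, so that DN exceeded CD8 by 16.1 points (12.3 to 19.8) and CD4 by 24.6 points (20.8 to 28.3). The reading frame was followed with the motif CTGGGG, searched on the coding strand of the CDR3 and held by 64.4%, 70.7% and 73.9% of the TRBV5 clonotypes with TRBD2, and by 64.6%, 68.1% and 71.2% of the TRBD2 clonotypes of the other V genes. In one frame its bases read tryptophan and glycine, in another leucine and glycine, and in the remaining one a threonine, serine, alanine or proline codon end followed by glycine. The tryptophan frame was used by 42.3% of motif-bearing TRBV5 clonotypes in CD4 (39.2 to 45.5%), 48.7% in CD8 (45.7 to 51.7%) and 63.9% in DN T cells (60.6 to 67.1%). In the other V genes it was used by 38.3%, 42.1% and 60.7%, and the TRBV5 gaps of DN to CD4 and to CD8 differed from theirs by -0.79 points (-5.55 to 3.98) and -3.34 points (-7.92 to 1.23). The leucine frame took 27.2%, 31.9% and 23.5%, and the remaining frame 30.4%, 19.4% and 12.6%. CD4 clonotypes 1, 3 and 4, CD8 clonotype 3 and DN clonotype 3, printed above, carry a tryptophan.
Large hydrophobic residues at position 6 or 7, counted as phenylalanine, isoleucine, leucine, methionine, valine, tryptophan and tyrosine in loops of 11 to 18 residues, were found in 22.7% of TRBV5 clonotypes in CD4, 34.9% in CD8 and 37.3% in the DN subset. DN exceeded CD4 by 14.6 points (12.4 to 16.8) and CD8 by 2.43 points (0.078 to 4.79), or 4.23 points among clonotypes of at least 2 reads. Compared with the other V genes, TRBV5 was lower in CD4 (25.2%) and higher in CD8 (29.5%), and the interval of the difference held 0 for DN T cells (37.8%).

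**Figure D4:**
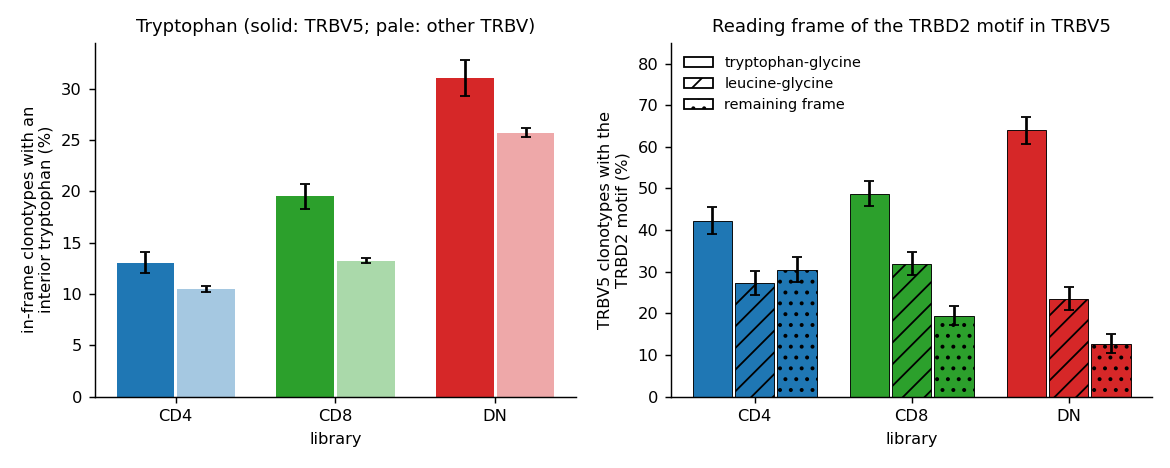
Left, share of in-frame clonotypes (y, percent) with an interior tryptophan in each library (x), for TRBV5 (solid) and the other TRBV genes (pale); right, the reading frame of the motif CTGGGG in TRBV5 clonotypes with TRBD2 (y, percent of motif-bearing clonotypes). Bars start at 0 and error bars are 95% Wilson intervals; the tryptophan share climbs from 13.1% in CD4 to 31.1% in DN T cells, and the tryptophan-glycine frame from 42.3% to 63.9%.

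The leading DN clonotypes were also listed in CD8 T cells, at a lower share. DN clonotype 1 had 465 reads in DN T cells (0.239% of TRB reads), 49 in CD8 (0.0325%) and 13 in CD4 (0.00973%). DN clonotype 2, with aspartate and proline after the glutamine, had 355, 57 and 7 reads. DN clonotype 3 had 295, 31 and 5 reads, DN clonotype 4 had 289, 50 and 5, and DN clonotype 5 had 185, 28 and 8. For each of these 5 the DN share was highest, CD8 next and CD4 lowest. They were picked by their DN reads, which favours a high DN share, but not by their order in CD8 and CD4. Of the 10 largest DN clonotypes, 10 were listed in CD8 and 10 in CD4. Their CD8 share relative to DN T cells had a median of 17.6% (lowest 9.51%, highest 25.3%). In CD4 the median was 4.01% (lowest 0.98%, highest 8.88%). Of the 50 largest, 49 were listed in CD8 and 43 in CD4. How far transfer of cells or reads between the sorted samples entered these counts was not tested.

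The largest CD4 clonotypes behaved otherwise. CD4 clonotype 1 had 289 reads in CD4 (0.216%), 8 in CD8 and 8 in the DN subset, and CD4 clonotype 2 had 247, 2 and 0. CD4 clonotype 3 had 162, 0 and 1, and CD4 clonotypes 4 and 5, with 131 and 126 reads in CD4, had 0 in both other libraries. A count of 0 allows a share of up to 0.00199% in CD8 and 0.00154% in DN T cells (3 reads of the total). Of the 50 largest CD4 clonotypes, 19 were listed in CD8 and 12 in DN T cells, and 0 of them had a larger share there. The choice by CD4 reads favours a high CD4 share.
In CD8 the largest clonotypes were of both kinds. CD8 clonotype 1 had 79 reads in CD8 (0.0524%) and 0 in the others, and CD8 clonotype 5 had 55 and 0. CD8 clonotype 2 had 62 reads in CD8, 6 in DN T cells and 0 in CD4, and CD8 clonotype 3 had 57 in CD8, 5 in CD4 and 0 in DN T cells. CD8 clonotype 4 was also DN clonotype 2, with a DN share of 0.183% and a CD8 share of 0.0378%. Of the 10 largest CD8 clonotypes, 7 were listed in DN T cells, 5 of them at a larger share there than in CD8. Of the 50 largest, 41 were listed in DN T cells and 33 had the larger share there.

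**Figure D5:**
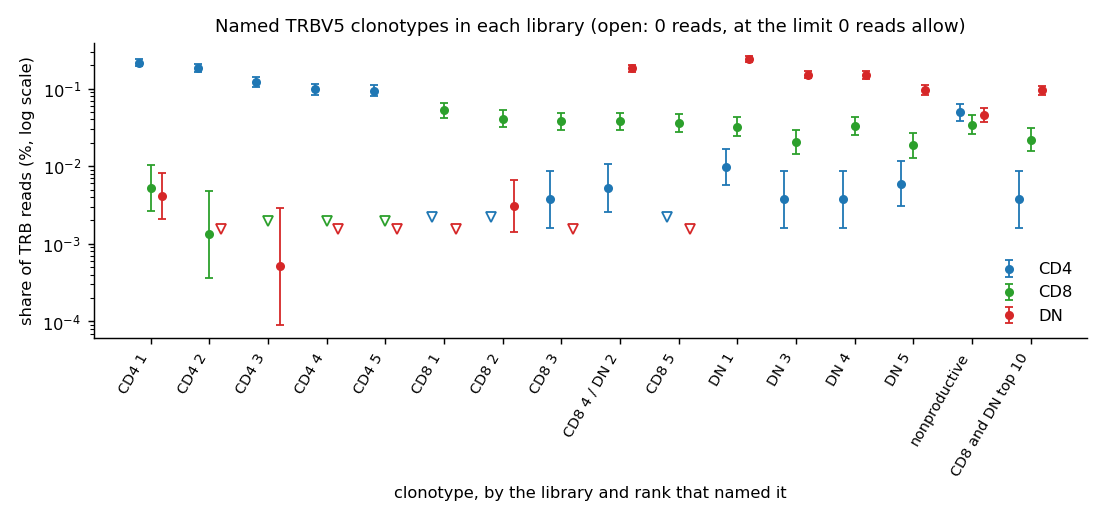
Share of TRB reads (y, percent, log scale) of each named TRBV5 clonotype (x, by the library and size rank that named it) in CD4, CD8 and DN T cells, with 95% Wilson intervals; open triangles mark 0 reads, drawn at the share that 3 reads would give. The DN clonotypes appear in all 3 libraries in the order DN, CD8, CD4 (0.239%, 0.0325% and 0.00973% for the largest), the CD4 clonotypes are absent or low elsewhere, and the nonproductive clonotype lies at 0.0345 to 0.0494% in each.

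Over all TRBV5 clonotypes, most were listed in 1 subset: 4269 only in CD4, 3544 only in CD8 and 2218 only in the DN subset. Another 355 were common to CD8 and DN but absent from CD4. CD4 and CD8 alone had 207 in common, CD4 and DN alone had 174, and 145 were listed in all 3 subsets. Those 145 were 1.33% of the distinct clonotypes and held 47.2% of the DN TRBV5 reads, 15.4% of the CD8 and 6.59% of the CD4 TRBV5 reads. Clonotypes listed only in DN T cells held 30.3% of the DN TRBV5 reads, where those listed only in CD4 or only in CD8 held 70.9% and 68.3% of theirs.
Of the 2892 DN clonotypes, 500 (17.3%, 16.0 to 18.7%) were listed in CD8 and 319 (11.03%, 9.94 to 12.2%) in CD4, a difference of 6.26 points (4.72 to 7.80), or 14.9 points weighted by reads and 9.90 points among clonotypes of at least 2 reads. At an equal depth of 133667 reads the difference was 6.51 points. The shares rose with clonotype size. In CD8 were found 7.25% of the DN clonotypes with 1 read, 21.3% of those with 2 to 9, 78.8% of those with 10 to 99 and 17 of the 17 with at least 100.
TRBV5 and the other V genes differed in how often clonotypes were shared. DN TRBV5 clonotypes were listed in CD4 more often than those of the other V genes, by 2.24 points (1.11 to 3.46), and in CD8 by a difference of -1.33 points, an interval that held 0. CD8 TRBV5 clonotypes were listed in CD4 in 8.28% against 4.61%, a difference of 3.67 points (2.87 to 4.55), and in DN T cells in 11.8% against 9.45%, a difference of 2.31 points (1.36 to 3.34). CD4 TRBV5 clonotypes, in turn, were listed less often than the others in CD8 (7.34% against 8.86%) and in DN T cells (6.65% against 8.58%), with differences of -1.52 points (-2.28 to -0.70) and -1.93 points (-2.66 to -1.14). TRBV5 makes up different shares of the 3 libraries, and the part of this in these differences was not tested.
Nonproductive TRBV5 clonotypes of DN T cells were shared less often than in-frame ones. Of 236 in DN T cells 17 (7.20%) were listed in CD8, where 18.2% of the in-frame ones were, a difference of -10.98 points (-14.04 to -6.71), and in CD4 the difference was -7.86 points (-10.06 to -4.38). Nonproductive clonotypes of CD4 and CD8 were also listed less often in CD8 and CD4, with differences of -5.14 points (-6.70 to -2.25) and -5.25 points (-7.22 to -1.49). For CD4 and CD8 clonotypes listed in DN T cells the differences were -3.12 and -2.64 points, and both intervals held 0. Nonproductive clonotypes were smaller, with 1 read in 70.3% of those in DN T cells against 56.6% of the in-frame ones. Since sharing rose with size, the part of size in these differences was not tested. The middle averaged 8.65 bases (SD 3.64) in in-frame clonotypes common to CD4 and CD8 alone, 10.6 bases (SD 4.47) in those only in CD4 and 10.4 bases (SD 4.32) in those only in CD8. It averaged 10.02 bases (SD 4.29) in those common to CD8 and DN alone and 11.4 bases (SD 4.63) in those only in DN.

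The same TRBV5 loop was at times encoded by different nucleotide sequences. Within a library this was so for 5.78% of the TRBV5 CDR3s in CD4, 5.62% in CD8 and 4.99% in the DN subset, beside 5.22%, 6.88% and 5.10% for the other V genes. In DN T cells one loop of 15 residues, joined to TRBJ2-3, was carried by 4 sequences that differ only within the capitals. Of 3 loops carried by 4 sequences each in DN T cells it had the most reads, 344 in DN, 57 in CD8 and 17 in CD4, and is shown for that. The other two had 13 and 13 reads in DN, 9 and 11 in CD8, and 4 and 6 in CD4.
DN loop, sequence 1: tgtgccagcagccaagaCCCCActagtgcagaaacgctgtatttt
DN loop, sequence 2: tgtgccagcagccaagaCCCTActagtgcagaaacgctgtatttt
DN loop, sequence 3: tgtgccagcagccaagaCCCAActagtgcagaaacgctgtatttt
DN loop, sequence 4: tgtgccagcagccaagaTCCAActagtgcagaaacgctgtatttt
Sequence 1 had 180 reads in DN T cells, 22 in CD8 and 11 in CD4. Sequence 2 had 119, 18 and 3, sequence 3 had 41, 15 and 1, and sequence 4 had 4, 0 and 2. Neighbouring sequences in this list differ by 1 base. Where clonotypes 1 mismatch from another at least 10 times as large were merged, as an alternative, sequence 4 joined sequence 3 and the others remained apart. In this loop the TRBV5 glutamine is followed by aspartate and proline, as in DN clonotypes 2 and 4. Aspartate at position 6 with proline at position 7 was carried by 2.64% of in-frame clonotypes in CD4 (2.21 to 3.14%), 1.70% in CD8 (1.34 to 2.14%) and 1.81% in the DN subset (1.37 to 2.39%). Such clonotypes held 9.03% of the in-frame TRBV5 reads in DN T cells, 2.43% in CD4 and 3.37% in CD8. They were 3 of the 10 largest in-frame TRBV5 clonotypes in DN T cells, 2 of 10 in CD8 and 0 of 10 in CD4. This pair of residues was chosen after the largest clonotypes were seen.
Between subsets, identical loops were partly encoded by different sequences. CD8 and DN T cells had 569 TRBV5 CDR3s in common at the amino acid level, and for 107 of them no nucleotide sequence was in common. CD4 and CD8 had 531 in common, 196 of them with different nucleotide sequences only, and CD4 and DN T cells had 426, of which 123 were of this kind. The lists held 4271 TRBV5 CDR3s in CD4, 3793 in CD8 and 2506 in the DN subset, so the loops in common with CD8 were 22.7% of the DN list.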

How the data were processed

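TCR libraries were made with a Takara SMARTer Mouse TCRα/β kit from CD4, CD8 and DN T cells of 1 mouse, 1 library each. Read alignment and clonotype assembly were done by the authors in MiXCR, whose version and settings are not given in the sources used here. The deposited tables hold the read count of each clonotype, not normalized. The fraction column deposited by the authors was checked and is the count over the sum of the table. Rows with a TRBV and a TRBJ gene were kept. Shares were compared with Wilson and Newcombe 95% intervals, means with 1.96 standard errors, and no p-value was computed (Python 3.11.15, SciPy 1.17.1, pandas 2.3.3), with scripts tested on simulated data. A clonotype was shared when V, J and nucleotide CDR3 were identical. Interior residues ran from residue 6 to before the last 6. Named clonotypes were the 5 largest in-frame ones per library, those among the 10 largest of several libraries, the largest nonproductive one and the CDR3 encoded by most sequences (of ties, that with most reads). Named J genes had the highest, lowest or most different shares. Alternatives were at least 2 reads, merging of clonotypes 1 mismatch apart, weighting by reads, equal depth and V genes with at least 1% of reads. The members and lists were chosen with earlier results of these data known. Genome coordinates and germline sequences were not used here.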

Additional observations from a re-analysis of the deposited data

Results flagged for a closer look

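For 3 measures the difference between TRBV5 and the other TRBV genes was itself unequal between libraries, by the interval of the difference of differences. For the in-frame share, the TRBV5 excess in CD4 T cells was larger than in CD8 by 2.47 percentage points (1.54 to 3.40) and larger than in DN T cells by 2.20 points (0.96 to 3.44). Among 13 V genes TRBV5 ranked only 5 for this share in CD4. For the TRBJ2 share, the excess in CD4 was larger than in CD8 by 2.41 points (0.34 to 4.47). For CDR3 length, the excess in CD4 was larger than in CD8 by 0.11 residues (0.045 to 0.168) and larger than in DN T cells by 0.24 residues (0.169 to 0.309), and that in DN T cells minus that in CD8 was -0.13 residues (-0.205 to -0.060). Each rests on 1 library per subset.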

How the results depend on the processing

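Of 29 compared values, 24 had an interval that excluded 0, and of 111 values under alternatives 97 kept both their direction and their side of 0. Within TRBV5, the differences between DN T cells and CD8 or CD4 kept their direction under every alternative run, but at 2 reads or more 3 differences of DN minus CD8 had an interval holding 0: the TRBJ2 share (2.48 points), the TRBJ2-7 share (1.98) and the TRBD2 share of TRBJ2 clonotypes (2.95). Weighting by reads moved some by over 1.5 times: in frame to -0.65 (CD8) and -1.24 points (CD4), length to 0.036 residues (CD4), the TRBJ2 share to 3.97 (CD8) and 10.4 points (CD4), the TRBD2 share to 9.12 (CD8) and 18.5 points (CD4), tryptophan to 7.18 points (CD8), and DN clonotypes listed in CD8 minus in CD4 to 14.9 points. Most changes touched TRBV5 against the other TRBV genes. In frame, this difference in CD8 was 0.92 points at 2 reads or more and -0.0085 with V genes of at least 1% of reads, and in DN T cells 0.68 weighted by reads and -0.51 with those V genes. For the TRBJ2 share it was 0.45 points in CD4 at 2 reads or more, and weighted by reads it was -2.36 for CD4, 1.58 for CD8 and -0.11 for DN, and 0.0091 in CD8 with V genes of at least 1%. For DN clonotypes listed in CD8 it was 0.20 points at 2 reads or more. Tryptophan in DN T cells gave 0.67 points weighted by reads. The alternatives for tryptophan, TRBJ2-7, TRBD2, the middle and hydrophobic residues were chosen after seeing the data. The cause was not tested. No paired analysis was possible because each subset had 1 library. Most clonotypes had 1 read, so their absence from another library is limited by depth.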

Other observations

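Some nucleotide CDR3s listed under TRBV5 in one subset were listed in another under a different V gene with the same J gene, and these were not counted as shared. Of the TRBV5 CDR3s in CD4, 72 appeared in CD8 in this way, 19 of them under TRBV4 and 15 under TRBV2. Of those in DN T cells, 42 appeared so in CD8, 15 under TRBV4, and 29 in CD4, 15 under TRBV2. In CD4, of 4 loops with 4 sequences each, the one with most reads was a TRBJ1-3 loop of 16 residues, with 45, 31, 12 and 9 reads, of which 1 was also listed in DN T cells, with 2 reads. In CD8 a TRBJ2-7 loop of 14 residues, with a tryptophan, was carried by 6 sequences with 9 reads at most.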
